A study of Mus musculus with 6 samples.

Results

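The genes of the mitochondrial carriers and of mitochondrial protein import were compared between old and young neural stem cells, self-renewing brain cells that form neurons and glia. The genes were chosen by symbol from the platform annotation: those starting with Slc25a, Timm, Tomm or Ucp and a digit, together with the pyruvate carrier genes Mpc1 and Mpc2 and the pore genes Vdac1, Vdac2 and Vdac3. Each gene was read by the probe set whose mean over the 6 arrays was highest. This gave 73 of the 18193 genes named by a probe set with 1 symbol, among them 47 carriers, 23 TOM and TIM genes and 3 pores. Mpc2 was not analysed here, nor were Tomm5 and Tomm6, whose probe sets carry a further symbol. The groups were 3 arrays of cells from old mice aged 9 months (OldNSC) and 3 arrays of cells from young mice aged 6 weeks (YoungNSC). All mice were of the C57BL/6JRj strain, and no transgene or treatment is named for either age. The labels used here do not say which brain region the cells came from, whether they were cultured, or whether animals were pooled. Nor do they name separate animals or cultures behind the replicates, so the p-values cover the spread among these arrays alone, which may be technical.

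Mitochondrial carriers sit in the inner membrane and move metabolites, nucleotides and cofactors between the cytosol and the matrix, while the VDAC pores let small solutes through the outer membrane. Nearly all mitochondrial proteins, the carriers included, are made in the cytosol and enter through the TOM complex of the outer membrane. Small TIM chaperones then escort carrier precursors across the intermembrane space to the TIM22 translocase, which inserts them into the inner membrane, whereas the TIM23 translocase takes up proteins with a cleavable presequence. Neural stem cells are known to rely on glycolysis and on the oxidation of fatty acids, and to turn towards oxidative phosphorylation when they form neurons.

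Levels are log2 values made by the authors with GCRMA, which brings dim probe sets close to a shared lowest value of 2.14. Brightness also depends on the probes, so a brighter probe set does not show a higher RNA level. Of the 73 genes, 61 lay above log2 4 on at least 3 arrays and were tested. The other 12 lay under log2 4 on all 6 arrays: Ucp1 and Ucp3, the testis-type ADP/ATP carrier Slc25a31, Slc25a2, Slc25a34, Slc25a41, Slc25a42, Slc25a45, Slc25a48, Slc25a54, Timm8a2 and Tomm20l. The ages were compared with limma across all 19858 probe sets that passed the same filter, and a gene was called at a Benjamini-Hochberg adjusted p under 0.05.

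Some features of the arrays run along with every comparison of the ages. Pairs of old arrays correlated at r = 0.995 across probe sets, pairs of young arrays at 0.979 to 0.993, and YoungNSC replicate 2 had the lowest array weight, 0.399. Old and young arrays correlated at 0.915 to 0.944. The 18 hybridisation control probe sets averaged 12.28 ± 0.098 on old and 13.24 ± 0.28 on young arrays (log2, SD, n = 3 each). The exact two-sided permutation p was 0.1, the lowest possible with 3 arrays a group. Markers of neural stem cells and radial glia were present, with 10 of 11 measured genes tested and Prom1 alone under log2 4 on all arrays, and their mean level was 10.40 to 10.48 on old and 11.03 to 11.09 on young arrays. In this list Msi1 was higher (log2 difference 0.52), Nes, Egfr and Hes5 were lower, Hes5 by far the most (-5.35), and 6 of the 10 tested genes were not called. The neuroblast and neuron list averaged 4.49 to 4.63 on old and 6.51 to 6.90 on young arrays, with 5 of its 6 tested genes lower in old cells and Stmn2, Rbfox3 and Syt1 under log2 4 throughout. The astrocyte list averaged 9.31 to 9.71 on old and 8.33 to 8.73 on young arrays, with 4 of 7 tested genes higher and 1 lower. The oligodendrocyte lineage list averaged 5.99 to 6.07 on old and 6.44 to 6.48 on young arrays. In it 2 of 4 tested genes were lower, Pdgfra (-1.44) and Cspg4 (-1.99), and Sox10, Mbp, Mog and Mag lay under log2 4 throughout. The ependymal list averaged 5.51 to 5.84 on old and 4.89 to 5.27 on young arrays, with 3 of 4 tested genes higher and Ccdc153 lower (-1.69). All 8 microglia markers and 9 of 11 markers of endothelial and mural cells lay under log2 4 on all arrays. The 2 tested markers of endothelial and mural cells, Acta2 (-1.33) and Cspg4, were lower. The part of these lists and controls in the results below was not tested, and fewer cells of a type cannot be told apart from less RNA per cell.

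Old cells had higher levels of 12 carriers and import genes and lower levels of 4, with 45 of 61 not called. The 16 calls were 26.2% of the tested members, beside 40.6% of all 10050 genes tested, of which 22.0% were higher and 18.5% lower. Slc25a35 passed the filter through the old arrays alone. Without it and other genes under log2 4 on every array of 1 age, the calls were 15 of 60 members, 11 higher (18.3%) and 4 lower (6.67%), or 25.0% in all, beside 39.0% of all genes. The differences were small for most members, with a median absolute log2 difference of 0.13 against 0.23 for all genes tested. The median signed difference was 0.06, against 0.01 for all genes tested. Carriers held 13 of the 16 calls, 11 higher and 2 lower among 37 tested, and the TOM and TIM genes held 3 among 21 tested. Of the 61, 8 were called with an absolute log2 difference of at least 0.5, or 13.1%, beside 22.8% of all genes, and all 8 were carriers, Slc25a35 among them. The values of the ages did not overlap for 31 members, or 50.8%, beside 60.0% of all genes. The count of members called higher was 5 without OldNSC replicate 3, 7 without OldNSC replicate 1 and 7 without OldNSC replicate 2, while without YoungNSC replicate 2 it was 10, with 5 called lower.

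**Figure D1:**
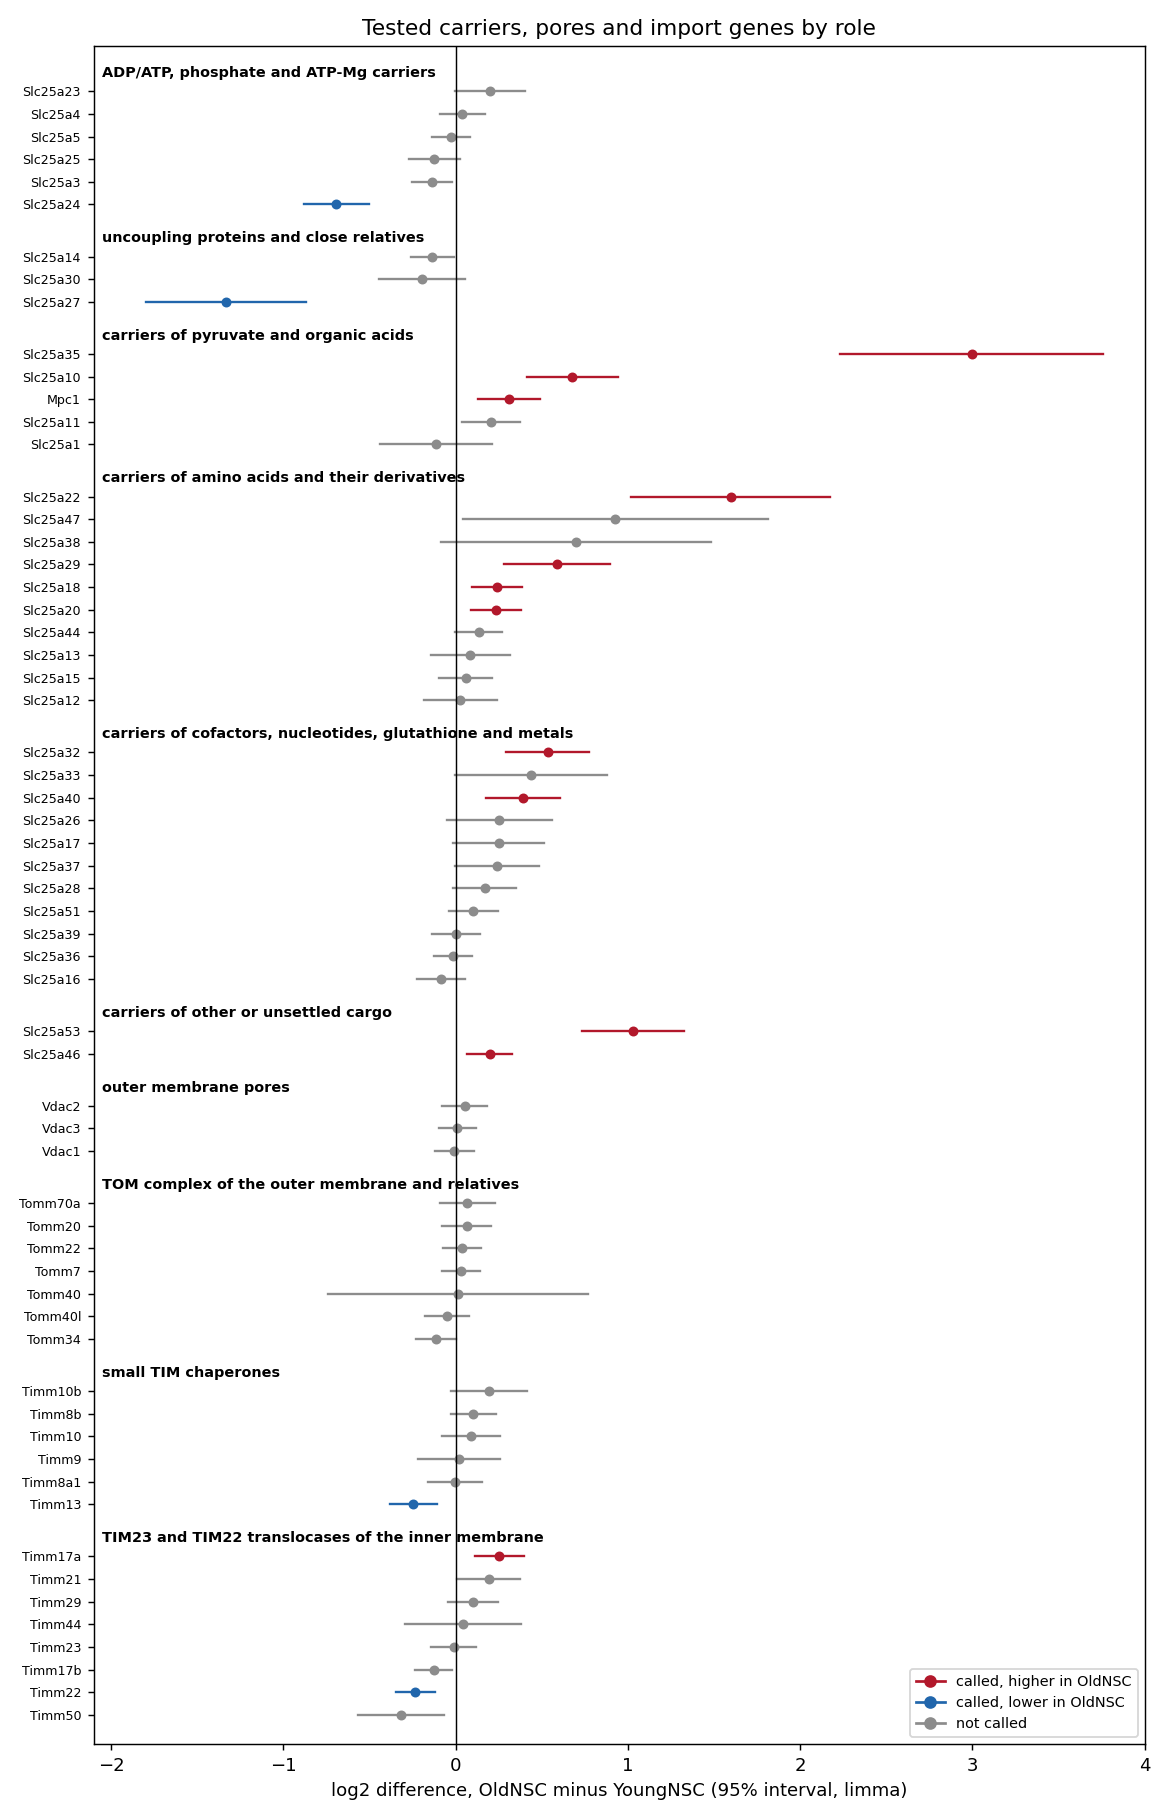
Log2 difference, OldNSC minus YoungNSC (horizontal axis), of the 61 tested genes grouped by role, with 95% intervals from limma; red marks genes called higher in OldNSC, blue called lower, grey not called. The 8 called genes at 0.5 or more from 0 are all carriers, and the pores and TOM genes lie between -0.11 and 0.07.

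The regions before the start of 4 members are shown because their genes fall on either side of this split, 2 of them carriers called higher and 2 of them import genes not called. Each is the 250 bases before the RefSeq start on GRCm38.p6, written 5′ to 3′ on the gene's strand, with capitals marking TGCGCA (the core of NRF1 sites), CCGGAAG (bound by ETS factors such as GABPA), CACGTG (the E-box of Myc and USF) or CCAAT (bound by NF-Y), or the reverse complement of these. Slc25a10 lies on the plus strand at chr11:120491587-120491836, Slc25a29 on the minus strand at chr12:108835877-108836126, Timm23 on the minus strand at chr14:32201892-32202141 and Tomm20 on the minus strand at chr8:126945922-126946171.
Slc25a10: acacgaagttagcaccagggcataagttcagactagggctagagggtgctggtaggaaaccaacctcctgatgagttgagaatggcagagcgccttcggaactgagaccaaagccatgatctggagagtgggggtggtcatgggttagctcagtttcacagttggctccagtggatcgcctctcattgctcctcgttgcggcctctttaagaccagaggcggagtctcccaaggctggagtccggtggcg
Slc25a29: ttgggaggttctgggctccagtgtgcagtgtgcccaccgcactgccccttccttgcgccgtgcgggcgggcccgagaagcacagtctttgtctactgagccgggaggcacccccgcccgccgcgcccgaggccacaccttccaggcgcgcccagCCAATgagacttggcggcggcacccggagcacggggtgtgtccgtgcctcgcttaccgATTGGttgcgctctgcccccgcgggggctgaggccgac
Timm23: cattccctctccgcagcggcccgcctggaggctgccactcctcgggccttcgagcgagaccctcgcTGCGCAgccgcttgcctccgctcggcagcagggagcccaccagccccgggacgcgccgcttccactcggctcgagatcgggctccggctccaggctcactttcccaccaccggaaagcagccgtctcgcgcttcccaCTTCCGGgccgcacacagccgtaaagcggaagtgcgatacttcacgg
Tomm20: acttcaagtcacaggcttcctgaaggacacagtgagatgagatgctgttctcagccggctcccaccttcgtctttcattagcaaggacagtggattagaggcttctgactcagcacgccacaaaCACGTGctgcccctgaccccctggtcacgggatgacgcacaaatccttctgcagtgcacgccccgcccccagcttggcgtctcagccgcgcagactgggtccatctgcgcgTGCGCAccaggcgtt

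The Slc25a10 window held none of the motifs and that of Slc25a29 held CCAAT on each strand. The Timm23 window held TGCGCA and CCGGAAG, and the Tomm20 window held TGCGCA and CACGTG. These 4 windows are examples and do not stand for the members called or not called. The window of Slc25a5, which was not called, held none of the motifs. A window of Mpc1 and that of Slc25a20, both called higher, held CCGGAAG. RefSeq windows were at hand for 58 of the 73 members. At least 1 window held CCGGAAG in 27.6% of these members, beside 16.8% of the tested genes with a window and 7.83% of all genes in the table. For CACGTG the shares were 19.0% of members, 10.3% of tested genes and 6.86% of all genes. For TGCGCA they were 12.1%, 14.5% and 7.36%, and for CCAAT 41.4%, 41.5% and 37.5%. Among members called, CACGTG was found in 0 of 12 and CCGGAAG in 2 of 12. Among tested members not called, they were found in 9 of 36 and 12 of 36. TGCGCA was found in 1 of 12 members called and 4 of 36 not called, and CCAAT in 5 of 12 and 16 of 36. These matches describe letters in a window, with no test.

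Of 10 tested carriers of amino acids and their derivatives, 4 rose and 0 fell, a share close to that of all genes tested (40.6%). All 10 had a difference above 0 (median 0.24), beside 5194 of 10050 genes. Among them Slc25a38, at 4.06, 4.31 and 4.55 on old and 4.06, 2.96 and 3.80 on young arrays, passed the filter mainly through the old arrays. Its sign is therefore no independent support. Slc25a22, a carrier of glutamate into mitochondria, was at 7.04, 7.25 and 7.72 on the old arrays, against 5.91, 5.40 and 5.91 on the young arrays (log2). The lowest old array stood more than a log2 unit above the highest young array. Slc25a22 rose 3.02-fold (95% interval 2.03 to 4.51, adjusted p = 0.00486). Slc25a29, a carrier of basic amino acids such as arginine and lysine, was at 8.36, 8.26 and 8.38 on the old arrays, against 7.80, 7.50 and 7.93 on the young arrays, with no overlap. It rose by 0.59 on the log2 scale (95% interval 0.28 to 0.89, adjusted p = 0.0162), a call lost without OldNSC replicate 1 and without OldNSC replicate 3 (adjusted p up to 0.0593). Its 3 other tested probe sets were each called higher, with log2 differences of 0.62, 0.86 and 1.04.

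Slc25a20, which carries acylcarnitines for fatty acid oxidation, was at 13.15, 13.23 and 13.22 on the old arrays, against 12.92, 12.93 and 13.05 on the young arrays. It rose 1.18-fold (adjusted p = 0.0268), while its other tested probe set had a log2 difference of 0.29 and did not pass (adjusted p = 0.0617). Slc25a18, the second glutamate carrier and one known from astrocytes, was at 13.19, 13.26 and 13.22 on the old arrays, against 13.00, 12.90 and 13.05 on the young arrays, and rose 1.18-fold (adjusted p = 0.0267). Both calls were lost without any 1 of the old arrays and without YoungNSC replicate 1, and that of Slc25a20 also without YoungNSC replicate 2. Leaving out 1 array gave an adjusted p of 0.0265 to 0.0906 for Slc25a20 and of 0.0366 to 0.0911 for Slc25a18. The aspartate-glutamate carriers of the malate-aspartate shuttle were not called, with log2 differences of 0.03 for Slc25a12 (95% interval -0.18 to 0.24) and 0.09 for Slc25a13 (-0.14 to 0.31). The widest intervals belonged to dim probe sets. Slc25a47 had 0.93 (0.04 to 1.81, adjusted p = 0.0937), and the glycine carrier Slc25a38 had 0.70 (-0.08 to 1.48, adjusted p = 0.135).

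**Figure D2:**
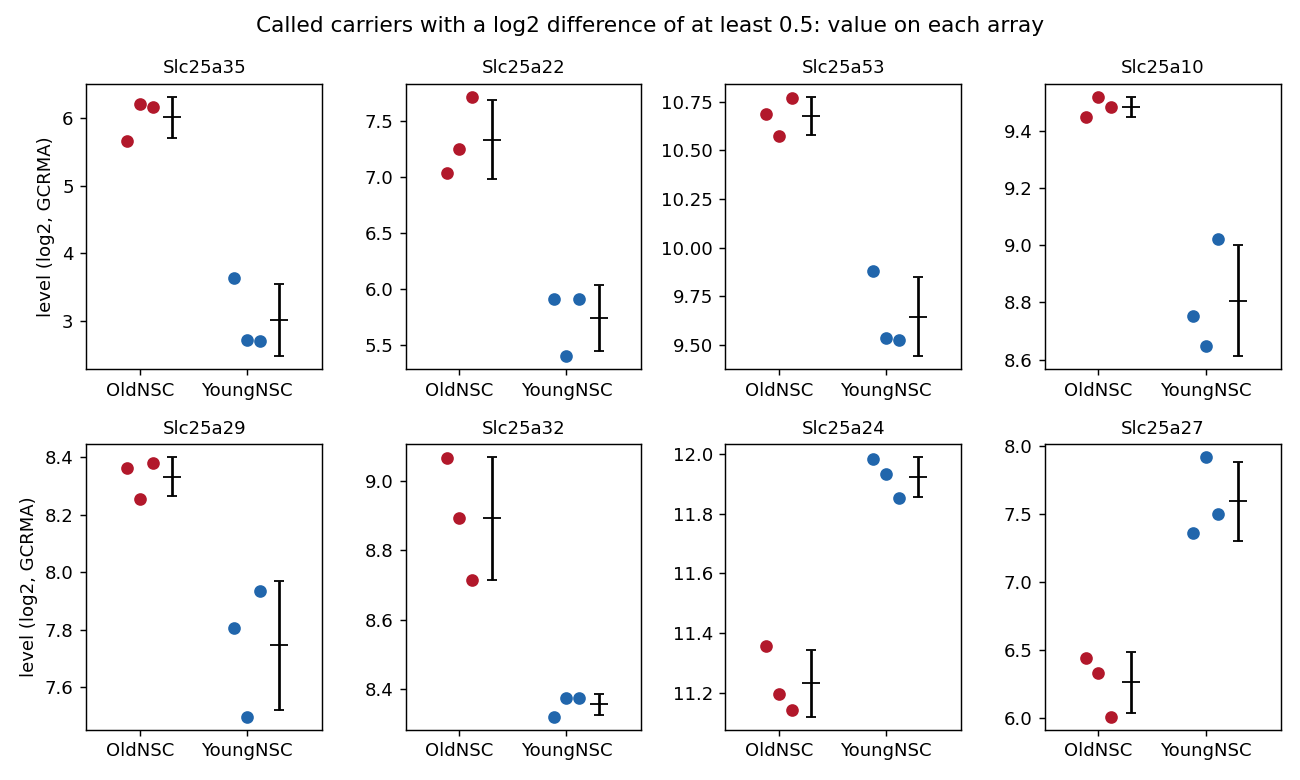
Level on each array (vertical axis, log2, GCRMA, a separate range for each gene) of the 8 carriers called with an absolute log2 difference of at least 0.5; points are arrays, OldNSC left in red and YoungNSC right in blue, and black bars give the mean and SD (n = 3). No gene has an old array within the range of its young arrays, and Slc25a24 and Slc25a27 are the pair with the lower old arrays.

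Among the carriers of pyruvate and organic acids, 3 of 5 tested rose and 0 fell, with Slc25a35 among the 3. Over all genes tested, 22.0% were higher and 18.5% lower. Slc25a35, related to carriers of organic acids but with a cargo that is not settled, was at 5.66, 6.21 and 6.16 on the old arrays, against 3.63, 2.72 and 2.70 on the young arrays. Every young array lay under log2 4, the stand-in for background here, so old cells were at least 4.04-fold higher, computed against that level. The gene was tested only because its old arrays were above that level, so its call is no independent support. Slc25a10, the dicarboxylate carrier that exchanges malate or succinate for phosphate, was at 9.45, 9.52 and 9.48 on the old arrays, against 8.75, 8.65 and 9.02 on the young arrays. It rose 1.60-fold (1.33 to 1.92, adjusted p = 0.00621). Its other tested probe set was also called higher, by 0.71 (adjusted p = 0.0394), but lay near log2 4. That probe set was at 4.64, 4.24 and 4.65 on the old arrays, against 4.01, 3.44 and 3.95 on the young arrays. It passed the filter mainly through the old arrays, so its call is no independent support. Mpc1, a subunit of the mitochondrial pyruvate carrier, was at 12.65, 12.84 and 12.84 on the old arrays, against 12.53, 12.41 and 12.46 on the young arrays, and rose 1.24-fold (adjusted p = 0.0236). That call was lost without OldNSC replicates 2 or 3 and without YoungNSC replicates 2 or 3, with an adjusted p up to 0.0804. The oxoglutarate-malate carrier Slc25a11 had a log2 difference of 0.21 (0.04 to 0.37, adjusted p = 0.0637, and 0.0348 with the trend and robust options). The citrate carrier Slc25a1, which exports citrate for lipid synthesis, had -0.11 (-0.44 to 0.21, adjusted p = 0.529).

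Carriers of cofactors, nucleotides, glutathione and metals gave 2 genes higher and 0 lower of 11 tested, or 18.2%, beside 40.6% of all genes. Slc25a32, which carries folate and the flavin cofactor into mitochondria, was at 9.07, 8.89 and 8.71 on the old arrays, against 8.32, 8.38 and 8.37 on the young arrays. It rose 1.45-fold (1.22 to 1.71, adjusted p = 0.0103), and its other tested probe set rose by 0.58 (adjusted p = 0.00155). Slc25a40, tied to mitochondrial glutathione import, rose 1.31-fold (adjusted p = 0.0188), whereas its relative Slc25a39 differed by 0.00 (-0.14 to 0.14, adjusted p = 0.994). The Slc25a40 call was lost without OldNSC replicate 1 and without OldNSC replicate 3 (adjusted p up to 0.0635). The difference between these relatives was not tested. Slc25a36, a pyrimidine nucleotide carrier, was at 13.35, 13.31 and 13.31 on the old arrays, against 13.35, 13.35 and 13.31 on the young arrays, so the ages overlapped. The NAD carrier Slc25a51 had a log2 difference of 0.10 (-0.04 to 0.25), and the 9 members not called ranged from -0.09 to 0.44.

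The remaining carriers, put together only because they fit no other role, had 2 tested genes, and both rose. Among all genes tested, 40.6% were called. Slc25a53, an X-linked carrier of unsettled cargo, was at 10.69, 10.57 and 10.77 on the old arrays, against 9.88, 9.54 and 9.53 on the young arrays, with no overlap. It rose 2.04-fold (1.66 to 2.51, adjusted p = 0.00237). Its other tested probe set had a log2 difference of 0.46 and did not pass (adjusted p = 0.0623). Slc25a46, an outer membrane protein that acts in mitochondrial fission and shape rather than transport, was at 13.12, 13.06 and 13.12 on the old arrays, against 12.97, 12.89 and 12.86 on the young arrays. It rose 1.15-fold (adjusted p = 0.0323), a call lost without any 1 array except YoungNSC replicate 1 (adjusted p up to 0.102), while its other tested probe set rose by 0.34 (adjusted p = 0.00858).

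Of the 6 tested ADP/ATP, phosphate and ATP-Mg carriers 1 fell and 0 rose. For the 3 tested uncoupling proteins and relatives, 1 fell and 0 rose, beside 18.5% lower and 22.0% higher of all genes. Slc25a24, which exchanges ATP-Mg for phosphate and is regulated by calcium, was at 11.36, 11.20 and 11.14 on the old arrays, against 11.98, 11.93 and 11.85 on the young arrays. It fell 1.62-fold in old cells (log2 difference -0.69, 95% interval -0.88 to -0.50, adjusted p = 0.00197). The paralogs Slc25a23 and Slc25a25 were not called, at 0.20 (-0.01 to 0.40) and -0.12 (-0.27 to 0.03). A second, dimmer tested probe set of Slc25a25 had -0.71 (-1.39 to -0.04) and did not pass (adjusted p = 0.0927), with the ages overlapping. Slc25a27, also known as UCP4 and best known from brain, was at 6.44, 6.33 and 6.01 on the old arrays, against 7.36, 7.92 and 7.50 on the young arrays. It fell 2.52-fold (log2 difference -1.33, -1.80 to -0.87, adjusted p = 0.00436), while its other tested probe set had -1.04 and did not pass (adjusted p = 0.141). Of its relatives, Slc25a14 was at 11.93, 11.88 and 11.91 on the old arrays, against 12.10, 12.04 and 11.99 on the young arrays, and was not called (-0.13, adjusted p = 0.0874), nor was Slc25a30 (-0.19, adjusted p = 0.184).

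The main ADP/ATP exchangers differed little at their brightest probe sets. Slc25a5 was at 14.63, 14.67 and 14.63 on the old arrays, against 14.64, 14.69 and 14.69 on the young arrays, a log2 difference of -0.03 (-0.14 to 0.08, adjusted p = 0.638). Slc25a4, the form of heart, muscle and brain, was at 14.59, 14.67 and 14.62 on the old arrays, against 14.64, 14.54 and 14.58 on the young arrays, a difference of 0.04 (-0.09 to 0.17, adjusted p = 0.572). The ages overlapped for both genes. The dimmest tested probe set of Slc25a4, at 5.90, 6.48 and 6.50 on the old arrays and 5.66, 4.98 and 5.65 on the young arrays, was called higher by 0.86 (adjusted p = 0.0488). The phosphate carrier Slc25a3 had -0.14 (-0.25 to -0.02, adjusted p = 0.0682, and 0.00574 with the trend and robust options).

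None of the outer membrane pores and none of the tested TOM genes was called at its brightest probe set. Of the 3 pores 0 passed in limma, with 0 at an unadjusted p under 0.05 and 0 with the trend and robust options. Vdac1 was at 14.26, 14.25 and 14.25 on the old arrays, against 14.28, 14.29 and 14.21 on the young arrays (log2 difference -0.01, 95% interval -0.12 to 0.11). Vdac2 had 0.05 (-0.08 to 0.18) and Vdac3 had 0.01 (-0.10 to 0.12). A second probe set of Vdac1, at 14.17, 14.16 and 14.19 on old and 14.29, 14.34 and 14.35 on young arrays, was called lower by a log2 difference of -0.15 (adjusted p = 0.0405). Its other probe sets above the filter were not called.

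Of the 7 tested TOM genes 0 passed, with 0 at an unadjusted p under 0.05 and 1 called with the trend and robust options, Tomm34, at a log2 difference of -0.11 (adjusted p = 0.0259 there). Tomm20, the receptor for presequences, was at 13.77, 13.75 and 13.67 on the old arrays, against 13.73, 13.66 and 13.60 on the young arrays, with the ages overlapping (0.06, -0.08 to 0.21). The receptor Tomm22 had 0.04 (-0.07 to 0.15), the small subunit Tomm7 0.03 (-0.08 to 0.14), and Tomm70a, the receptor for carrier precursors, 0.07 (-0.09 to 0.23). For these genes the intervals exclude a change of 1.5-fold. For Tomm40, the channel of the complex, they do not: it was at 7.70, 7.70 and 7.20 on the old arrays, against 7.93, 6.92 and 7.72 on the young arrays (0.01, -0.74 to 0.77). Single further probe sets were called, in Tomm20 higher by 0.26 (adjusted p = 0.0398) and in Tomm70a with -0.36 (adjusted p = 0.0206).

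In the small TIM chaperones and the inner membrane translocases, 3 of 14 tested genes changed at their brightest probe set, each by less than 1.2-fold. The share called over all genes was 40.6%. Timm13, which works with Timm8 proteins, was lower, at 11.82 ± 0.043 on the old and 12.06 ± 0.062 on the young arrays (log2, SD, n = 3 each), with no overlap (log2 difference -0.25, limma adjusted p = 0.0200). That call was lost without OldNSC replicates 1 or 3 and without YoungNSC replicates 1 or 3 (adjusted p up to 0.0711). Timm8a1 was at 13.12, 13.15 and 13.05 on the old arrays, against 13.20, 13.05 and 13.08 on the young arrays, with overlap and a difference of -0.00 (-0.16 to 0.15). Timm22, the channel that inserts carriers, was at 10.26, 10.20 and 10.26 on the old arrays, against 10.49, 10.44 and 10.50 on the young arrays. It was lower (-0.23, -0.35 to -0.12, adjusted p = 0.0133), a call lost without OldNSC replicate 2 (adjusted p = 0.0532). Its other tested probe set had -0.10 and did not pass (adjusted p = 0.235), with the ages overlapping.

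Timm23, the presequence channel, was at 13.75, 13.83 and 13.76 on the old arrays, against 13.81, 13.73 and 13.83 on the young arrays, and did not pass (-0.01, -0.14 to 0.12). Its partner Timm17a was higher, at 12.90, 12.96 and 12.99 on the old arrays, against 12.76, 12.63 and 12.70 on the young arrays (0.25, adjusted p = 0.0205), while the isoform Timm17b had -0.13 (adjusted p = 0.0708). The Timm17a call was lost without OldNSC replicates 2 or 3 and without YoungNSC replicate 3 (adjusted p up to 0.0726). The presequence receptor Timm50 had -0.32 (-0.57 to -0.07, adjusted p = 0.0578, and 0.0182 with the trend and robust options), and its old arrays all lay below its young ones. Timm44, which tethers the import motor, had 0.04 (-0.29 to 0.38). Timm29, a subunit of the TIM22 complex, had 0.10 (-0.05 to 0.24), while its second probe set was called higher by 0.32 (adjusted p = 0.0435).

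**Figure D3:**
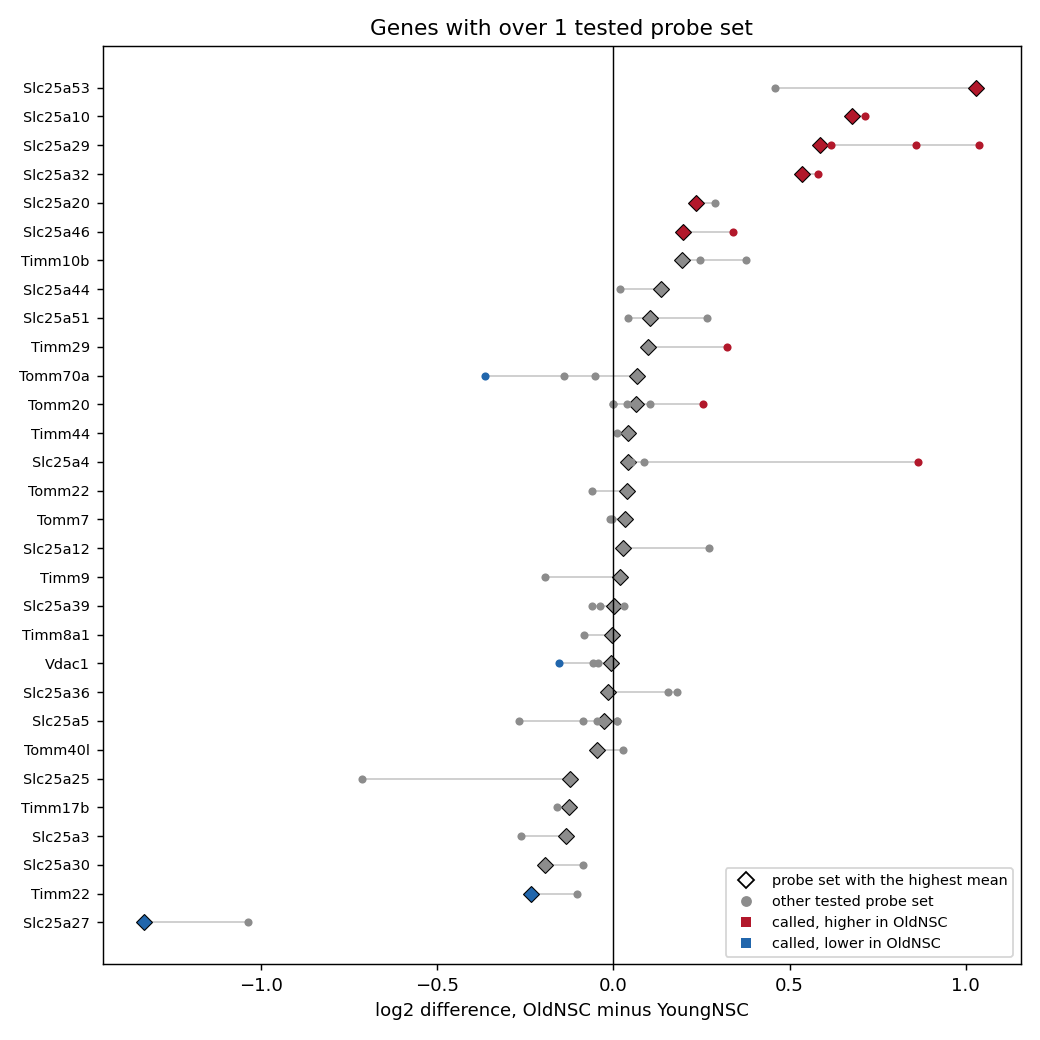
Log2 difference, OldNSC minus YoungNSC (horizontal axis), of every tested probe set in the 30 genes with more than 1; diamonds are the probe sets with the highest mean, circles the others, red called higher in OldNSC, blue called lower and grey not called. All tested probe sets share a sign in 21 of the 30 genes.

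Several probe sets read the same gene, and of the 30 genes with over 1 tested probe set, 21 had differences of a single sign. In 0 of the 30 did probe sets with opposite signs both reach an unadjusted p under 0.05 in limma. Of the 56 further tested probe sets, 9 were called higher and 2 lower, beside 36.6% called of all probe sets tested. Carriers of one family share sequence, and probe sets whose names end in _x_at or _s_at can read related transcripts. Without the probe sets ending in _s_at, _x_at or _a_at, 12 members were called higher and 3 lower, but these were not all the same genes. Mpc1 and Timm13 have only such probe sets and dropped out. Slc25a4 was then read by its dimmest tested probe set, the one called higher by 0.86, while its brighter probe sets were not called.

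Brighter probe sets differed less, among the members as among all genes. Of the 25 members with a mean of log2 12 or more, 20.0% were called and 0 had an absolute difference of 0.5 or more, beside 30.4% called and 5.78% at 0.5 or more among all genes this bright. Of the 36 dimmer members, 30.6% were called and 27.8% differed by 0.5 or more, beside 44.6% and 33.9% of all dimmer genes. The TOM genes and pores were mostly among the bright probe sets, and Slc25a35, Slc25a22 and Slc25a27 among the dim ones.

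**Figure D4:**
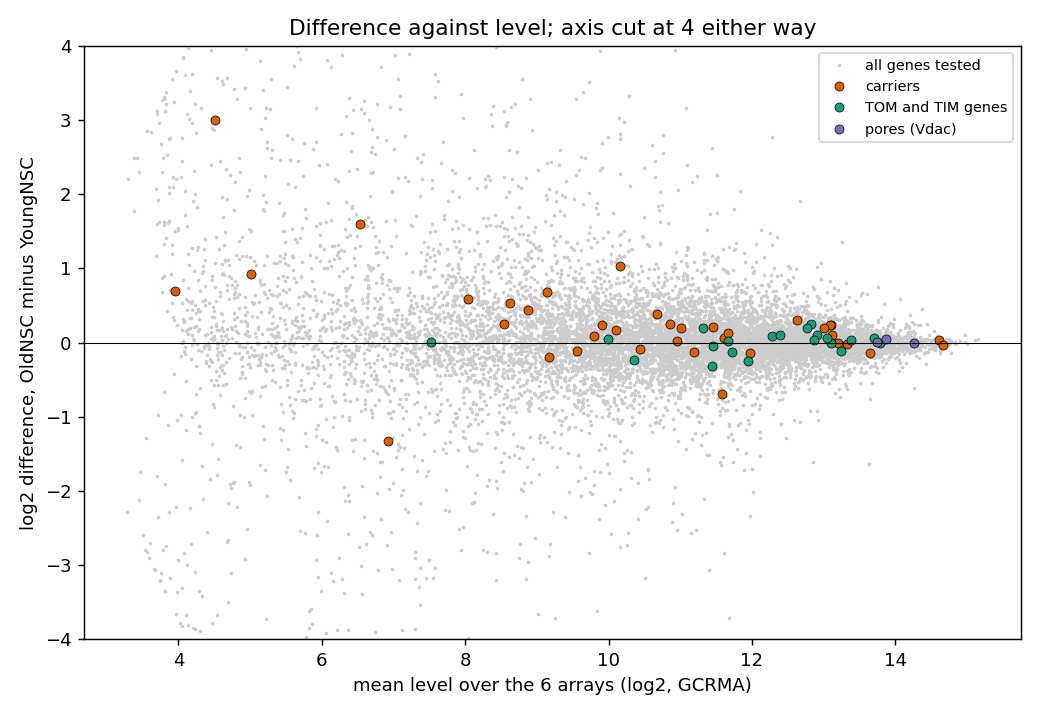
Log2 difference, OldNSC minus YoungNSC (vertical axis, 148 genes beyond 4 either way not drawn), against mean level over the 6 arrays (horizontal axis, log2, GCRMA) for all 10050 genes tested (grey), carriers (orange), TOM and TIM genes (green) and pores (purple). The carrier drawn at 3.00 is Slc25a35, whose young arrays all lay under log2 4, and the pores and most TOM and TIM genes lie close to 0 at bright levels.

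Related genes of import, folding, processing, outer membrane assembly, proteolysis and calcium or ion transport, which fall outside the symbol rule, were read from the same fit. Of 34 tested, 11 rose and 1 fell, or 35.3%, beside 40.6% of all genes, and 29 of the 34 had a difference above 0 (median 0.12). Without OldNSC replicate 2, without OldNSC replicate 3 and without YoungNSC replicate 2, 6, 6 and 7 were called higher. Dnajc15, a J-protein of the import motor, was at 12.55, 12.67 and 12.63 on the old arrays, against 11.68, 11.65 and 11.80 on the young arrays, and rose 1.87-fold (adjusted p = 0.000470). The insertase Oxa1l rose 1.34-fold (adjusted p = 0.00765), the intermediate peptidase Mipep 1.48-fold (adjusted p = 0.00897), the chaperone Trap1 1.28-fold (adjusted p = 0.00617) and the calcium uniporter regulator Micu2 1.33-fold (adjusted p = 0.0105). Mtch1, an outer membrane relative of the carriers, rose 1.47-fold (adjusted p = 0.0120), and the peptidase Xpnpep3 rose 1.40-fold (adjusted p = 0.0176). Chchd4, the oxidoreductase that folds small TIM proteins in the intermembrane space, was at 11.09, 11.05 and 10.97 on the old arrays, against 11.35, 11.32 and 11.37 on the young arrays, and fell 1.24-fold (adjusted p = 0.00834). The matrix chaperones Hspa9 (0.12, adjusted p = 0.114) and Hspd1 (0.06, adjusted p = 0.276) were not called.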

How the data were processed

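Total RNA was measured on 6 arrays, 1 sample each. The deposited values are log2 levels per probe set, made by the authors with GCRMA per the submitters' processing notes. The version, chip definition and build were not given in the sources used here, and the scale follows from their range and shared lowest value. Of 45101 probe sets, 64 controls were left out, and genes were named from the 34945 with 1 symbol. Of their identifiers 99.4% matched RefSeq (GRCm38.p6), with 0 symbols changed.

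OldNSC and YoungNSC were compared with limma 3.58.1 in R 4.3.3 (lmFit, eBayes without trend, two-sided, 4 residual and 1.47 prior degrees of freedom). Intervals are 95% and use the moderated errors. The fit was run on simulated data with independent noise and far fewer shifted probe sets than were called here. That run checks the working of the fit and not the calls in these data. Every member could be named; values on every array were given for called members with an absolute log2 difference of at least 0.5 and the brightest member of each role, others were given so after their values were seen, and up to 8 related genes were named by smallest p. Further members that were not called were named after their values were seen. The members, role groups, lists and alternatives were chosen with earlier results of these data known. The alternatives were other filters, scalings, thresholds, array weights, eBayes options and probe set choices, leaving out each array, and the replicate number as a block. Leaving genes under log2 4 on every array of 1 age out of the counts was added after the data were seen. Same-numbered arrays had correlations of deviations of -0.16, -0.11 and 0.16, so the numbers were not taken as pairs. The number of arrays limits the precision.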

Additional observations from a re-analysis of the deposited data

How the results depend on the processing

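Across 17 alternative settings, 0 named genes changed direction while called. Of the 16 called members, 7 stayed called on leaving out any 1 array and 6 in every setting in which they were tested: Slc25a10, Slc25a22, Slc25a24, Slc25a27, Slc25a53 and Slc25a35, which passed the filter through the old arrays alone. The members called higher in OldNSC, 12 as reported, numbered 7 with no filter, 6 with the replicate block, 4 at a threshold of 0.01, 5 with a fold of at least 1.5 asked as well, and 5 to 11 on leaving out 1 array. The members called lower, 4 as reported, numbered 7 with trend and robust options, 2 at a threshold of 0.01, 2 with the fold asked as well, and 3 to 5 on leaving out 1 array. The trend and robust options called 21 members in all. They also added Slc25a11 (0.21) and Timm21 (0.19, limma adjusted p = 0.0260 there) to the members called higher. The related genes called higher, 11 as reported, numbered 7 with no filter, 7 with the replicate block, 4 at a threshold of 0.01, 1 with the fold asked as well, and 6 to 9 on leaving out 1 array. The related genes called lower numbered 0 with the fold asked as well, since Chchd4 differed by 1.24-fold, and 1 on leaving out any 1 array. Why the counts differed between settings was not tested, except where a stricter threshold or the added fold set the count. On leaving out 1 array, the counts also varied with the array left out. Rescaling moved the median of all kept probe sets by -0.01 (log2) and left 12 members higher and 5 lower. Dim probe sets, such as those of Tomm40 and Slc25a38, leave wide intervals.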
